A study of Mus musculus with 4 samples.

Results

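The ErbB family consists of receptor tyrosine kinases of the epidermal growth factor (EGF) receptor type and of the growth factors that bind them. The account covers 10 genes taken by symbol from the 15424 genes of the deposited expression table, whatever their values: the receptors Egfr, Erbb2 and Erbb3, the ligands Areg, Ereg, Btc, Hbegf, Tgfa and Nrg1, and the inhibitor Errfi1. One group of tumors carried an shRNA against Taz (shTaz) and the control tumors an shRNA against luciferase (shLuc). Both kinds grew as subcutaneous allografts of R728T1 cells in nude mice, a strain without mature T cells. The labels trace R728T1 to a mouse model named after Rb and P53 and call the cells non-SMCs, a term they do not spell out, while giving small cell lung cancer as the cell type. The labels list 2 samples in each group, 4 in all, but the table holds 1 value per gene and group, headed by a label that both samples of the group carry. How the samples were combined is not given in the sources used here, and neither are the shRNA sequences, the promoter that drives them or the number of animals. No difference below therefore has a replicate check, an SD or a test.

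ErbB ligands are made as membrane-bound precursors, and metalloproteases of the ADAM family cut them free. A bound ligand pairs 2 receptors, whose kinases then signal through RAS and ERK and through PI3K and AKT. Erbb2 has no known ligand of its own and Erbb3 has little kinase activity, so that both act mainly as partners in pairs. Errfi1 (also called Mig6) binds active receptors and blocks their kinase, and its expression is itself induced by receptor signaling. In lung cancer, activated EGF receptor is a well-known driver of adenocarcinoma, whereas neuroendocrine small cell tumors typically have little of it.

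Values are FPKM, the fragments assigned to a gene scaled to the length of its transcripts and to the mapped total of the library, so that levels can be set side by side between genes. A difference is log2((shTaz + 1)/(shLuc + 1)), positive where shTaz is higher, and the added 1 makes it smaller than the plain log ratio, most of all at low levels. A difference of at least 1 in size is called 2-fold, and a gene is counted where its mean over the groups is at least 1 FPKM. Over the 11650 genes that met this, the median difference was 0.12.

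RefSeq promoter windows (build GRCm38.p6, the mm10 coordinates, 250 bases before to 50 after a start site) were used for 6 of the 10 genes, with 7 windows in all. Because the targeted protein acts through TEAD factors, they were searched on both strands for the TEAD core GGAATG and for the AP-1 motif TGANTCA. The TEAD core occurred once in the Erbb2 window, at -88 from the start site, and once in the upstream one of the Errfi1 windows, at -65, where it reads as its reverse complement. It was in none of the windows of Areg, Btc, Egfr, Tgfa or the downstream start of Errfi1, and the AP-1 motif was in none of the 7. No window was at hand for Erbb3, Ereg or Nrg1. Hbegf, the most abundant of the 10 genes, was left out when the windows were selected, so its promoter was not searched. Of 32851 promoter windows of the same length in the table, 14.7% held the TEAD core and 7.81% the AP-1 motif. Shown are the windows that held a TEAD core and those of Tgfa and Areg, the ligands with the largest differences in each direction, each on the plus strand and read 5′ to 3′ with the TEAD core in capitals.
Erbb2 chr11:98412234-98412533: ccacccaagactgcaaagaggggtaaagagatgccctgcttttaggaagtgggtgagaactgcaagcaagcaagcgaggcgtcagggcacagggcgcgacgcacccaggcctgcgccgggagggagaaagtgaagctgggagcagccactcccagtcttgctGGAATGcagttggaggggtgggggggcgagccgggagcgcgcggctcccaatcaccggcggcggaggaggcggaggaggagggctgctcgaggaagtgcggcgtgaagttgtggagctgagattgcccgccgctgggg
Errfi1 chr4:150853546-150853845: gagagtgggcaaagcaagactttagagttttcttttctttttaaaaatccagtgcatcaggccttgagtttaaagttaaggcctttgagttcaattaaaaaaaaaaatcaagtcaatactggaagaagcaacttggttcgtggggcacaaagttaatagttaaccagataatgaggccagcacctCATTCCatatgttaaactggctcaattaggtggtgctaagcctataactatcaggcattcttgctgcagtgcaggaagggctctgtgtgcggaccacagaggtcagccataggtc
Tgfa chr6:86194972-86195271: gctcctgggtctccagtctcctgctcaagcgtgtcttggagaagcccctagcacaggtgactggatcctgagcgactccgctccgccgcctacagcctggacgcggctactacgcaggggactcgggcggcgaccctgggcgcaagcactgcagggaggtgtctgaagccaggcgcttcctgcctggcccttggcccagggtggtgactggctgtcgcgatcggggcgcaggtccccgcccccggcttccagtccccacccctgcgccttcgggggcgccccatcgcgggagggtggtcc
Areg chr5:91139349-91139648: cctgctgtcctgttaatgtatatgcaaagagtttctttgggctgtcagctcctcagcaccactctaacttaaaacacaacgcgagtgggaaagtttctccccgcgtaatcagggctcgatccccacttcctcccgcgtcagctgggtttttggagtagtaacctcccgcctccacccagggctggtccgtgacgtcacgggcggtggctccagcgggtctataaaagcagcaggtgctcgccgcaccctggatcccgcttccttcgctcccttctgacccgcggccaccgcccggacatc
A match is a description of letters and not a bound site, and the absence of one covers these windows alone.

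The knockdown was checked first. Wwtr1, which encodes the Hippo pathway coactivator TAZ, was at 15.1 FPKM in shTaz and 23.4 FPKM in shLuc tumors, a difference of -0.60. Of all genes, 9.36% lay as low or lower. Taz, the older symbol of the unrelated mitochondrial gene Tafazzin, was at 9.50 FPKM in shTaz and 13.7 FPKM in shLuc tumors, a difference of -0.48. With the trends of GC content and transcript length removed, Wwtr1 was at -1.10 and Taz at -0.76. Yap1, the paralog of Wwtr1, was in shTaz at 1.40 times its level in shLuc tumors, which was 8.59 FPKM, a difference of 0.44 that was -0.02 with the trends of GC content and transcript length removed. The labelled small cell identity had little behind it in its defining genes. Of 10 neuroendocrine markers 4 were analysed here. Insm1 and Syp were under 1 FPKM in both groups, and Uchl1 was at 1.51 FPKM in shTaz and 10.1 FPKM in shLuc tumors. Ncam1 was the exception, at 43.8 FPKM in shTaz and 39.8 FPKM in shLuc tumors. All 8 mesenchymal or non-neuroendocrine markers passed the filter, and their summed level was 2424 FPKM in shTaz and 2467 FPKM in shLuc tumors. Vim led this sum, at 913 FPKM in shTaz and 1048 FPKM in shLuc tumors. In bulk tumors these levels do not tell tumor cells from host cells.

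Among the 10 ErbB genes, 8 passed the filter and Erbb3 and Btc did not. Tgfa alone was 2-fold different, higher in shTaz, and no member was 2-fold lower. Of all genes, 7.21% were 2-fold different, 3.96% higher and 3.25% lower, so that 1 of 8 is not set apart from the background. The median difference of the 8 genes was 0.31, and 6 of them were higher in shTaz, where 58.3% of all genes were. When the trends of the difference with GC content and transcript length were removed, the median of the 8 was -0.16. Scaling also changed the balance of all genes past 2-fold, which stood at 461 higher and 379 lower as deposited, 307 higher and 497 lower with median-ratio scaling, 288 and 473 with quantile normalization, 189 and 303 with the trends removed, and 1002 and 258 with the columns brought to the same sum.

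**Figure D1:**
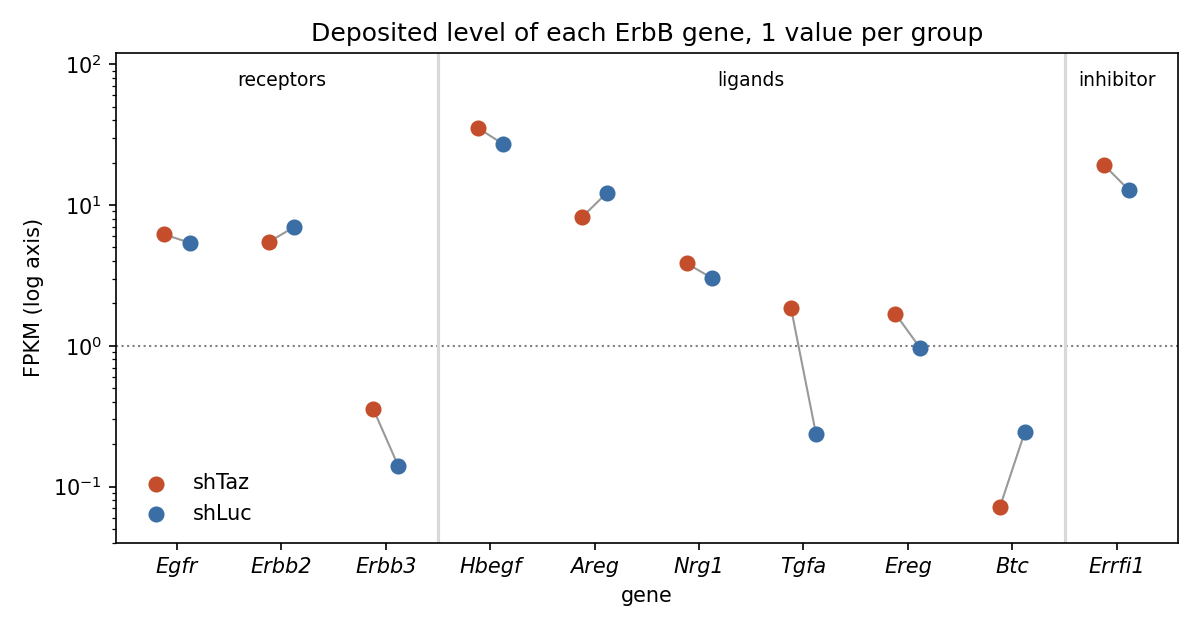
FPKM of each of the 10 genes on a log axis, with shTaz to the left of shLuc and a line joining the 2 values of a gene; each point is the authors' value for a group, and the dotted line marks 1 FPKM. Hbegf and Errfi1 lead in both groups, Tgfa is at 1.86 FPKM in shTaz and 0.236 FPKM in shLuc tumors, and the receptors Egfr and Erbb2 exchange places.

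The receptors were dominated by Egfr and Erbb2 in both groups. Egfr, which binds EGF, amphiregulin, TGF-alpha and related ligands, was at 6.17 FPKM in shTaz and 5.39 FPKM in shLuc tumors, a difference of 0.17 that lay 0.05 above the median of all genes. Erbb2, the ligandless partner receptor, was at 5.47 FPKM in shTaz and 6.95 FPKM in shLuc tumors, a difference of -0.30. The level of Egfr was thus 1.13 times that of Erbb2 in shTaz and 0.776 times in shLuc tumors, while the sum over the 3 receptors was 11.99 FPKM in shTaz and 12.5 FPKM in shLuc tumors. Erbb3, which binds neuregulins, was close to undetected at 0.355 FPKM in shTaz and 0.140 FPKM in shLuc tumors, or 2.96% of the receptor sum in shTaz and 1.12% in shLuc tumors. Both values were far under the filter, and with no read depth known their ratio cannot be given an error. With the trends removed, Egfr was at -0.28 and Erbb2 at -0.14. In that setting neither the higher value of Egfr in shTaz nor its rise relative to Erbb2 held.

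Hbegf was the most abundant of the 10 genes. It encodes heparin-binding EGF-like growth factor, a ligand of Egfr and Erbb4, and stood at 35.3 FPKM in shTaz and 27.2 FPKM in shLuc tumors, with a difference of 0.36. That placed it at the 89.7 percentile of all listed genes in shTaz and at the 86.3 percentile in shLuc tumors. Areg, which encodes amphiregulin, an Egfr ligand known as a YAP target in human breast epithelial cells, was the next most abundant ligand, and it was lower in shTaz. It was at 8.21 FPKM in shTaz and 12.2 FPKM in shLuc tumors, a difference of -0.52. Without the added 1, its shTaz level was 67.0% of the control level. Of all 11650 genes, 11.7% lay as low as Areg or lower, and 32.7% differed at least as much in either direction. The level of Hbegf was 4.30 times that of Areg in shTaz and 2.22 times in shLuc tumors.

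Tgfa encodes TGF-alpha, a high-affinity ligand of Egfr. It was at 1.86 FPKM in shTaz and 0.236 FPKM in shLuc tumors, a difference of 1.21, and 1.67% of all genes lay as high or higher. The ratio of the deposited levels was 7.88. Its mean of 1.05 FPKM was just over the filter and owed to the shTaz value, and a gene this low in shLuc could only have passed by differing. Among the 1527 genes with a mean of 1 to 2 FPKM, 9.95% were 2-fold different in either direction. With quantile normalization Tgfa fell under the filter, at a difference of 1.13.

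The other ligands were low. Nrg1, which encodes neuregulin 1, a ligand of Erbb3 and Erbb4, was at 3.85 FPKM in shTaz and 3.03 FPKM in shLuc tumors, with a difference of 0.27. Ereg, which encodes epiregulin, a ligand of Egfr and Erbb4, was at 1.69 FPKM in shTaz and 0.958 FPKM in shLuc tumors, with a difference of 0.46. Both turned below 0 with the trends removed, to -0.29 for Nrg1 and -0.17 for Ereg. Btc, which encodes betacellulin, another ligand of Egfr and Erbb4, was at 0.0712 FPKM in shTaz and 0.245 FPKM in shLuc tumors and failed the filter.

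Ligand composition is described here without a spread, since each group has 1 value. The 6 ligands summed to 50.9 FPKM in shTaz and 43.9 FPKM in shLuc tumors, a ratio of 1.16 that would change with scaling. Hbegf made up 69.2% of this sum in shTaz and 61.9% in shLuc tumors, and Areg 16.1% in shTaz and 27.9% in shLuc tumors. Tgfa was 3.65% of the sum in shTaz and 0.538% in shLuc tumors, and Nrg1 7.56% in shTaz and 6.91% in shLuc tumors. Hbegf and Areg together accounted for 85.3% in shTaz and 89.8% in shLuc tumors.

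Errfi1, the feedback inhibitor of the receptors, was at 19.2 FPKM in shTaz and 12.7 FPKM in shLuc tumors, a difference of 0.56. Its level was 3.10 times that of Egfr in shTaz and 2.35 times in shLuc tumors. It was above the median of all genes in all 9 alternative settings, by 0.27 to 0.53. Filters and gene type left its own difference unchanged, and scaling by a factor moved it nearly together with the median. Its place was thus mainly open to quantile normalization, at 0.51 above the median, and to the trend removal, at 0.27.

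The levels ran in the order Hbegf, Errfi1, Areg, Egfr, Erbb2, Nrg1, Tgfa, Ereg, Erbb3 and Btc in shTaz tumors. In shLuc tumors the order was Hbegf, Errfi1, Areg, Erbb2, Egfr, Nrg1, Ereg, Btc, Tgfa and Erbb3. Errfi1 was only 1.04 times Areg in shLuc tumors, against 2.33 times in shTaz tumors. With 1 value per group, no spread shows which neighbours in these orders differ.

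**Figure D2:**
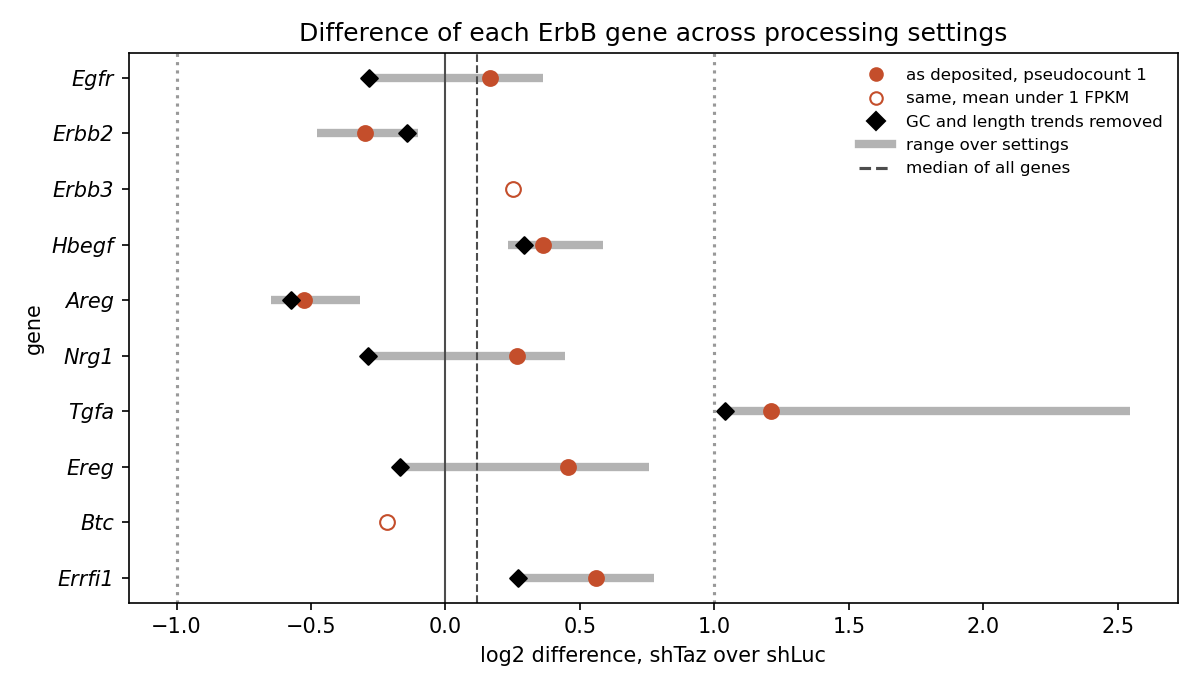
Log2 difference (shTaz over shLuc) of each gene, as deposited (circles, open for a mean under 1 FPKM), with GC and length trends removed (diamonds) and over the settings in which the gene passed the filter (grey bars); the dashed line is the median of all genes and the dotted lines mark 2-fold. Tgfa lies right of 1 in each of its settings and Areg and Erbb2 lie left of 0, whereas the bars of Egfr, Nrg1 and Ereg cross 0. Being low in shLuc, Tgfa could pass the filter only through a higher shTaz value.

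Base composition moved with the differences, and its part in them was not tested beyond the trend removal. Across genes, which are not independent replicates, the Spearman correlation of the difference with transcript GC content was -0.56. Ereg, Nrg1 and Egfr have AT-rich transcripts (39.2%, 42.7% and 44.4% GC in the longest GENCODE transcript), and each lay below the median of the genes in its own group when all genes were put in 10 equal groups by GC content, by -0.10, -0.20 and -0.20. The GC-rich Erbb2 transcript (57.3%) lay at -0.09 from the median of its group. Areg (48.4% GC) lay at -0.80 from its group median, which was 0.28. Tgfa (50.9%) and Hbegf (51.5%) were above the median of their shared group, which was 0.08, by 1.13 and 0.28, and Errfi1 (47.5%) was above its own by 0.28.

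**Figure D3:**
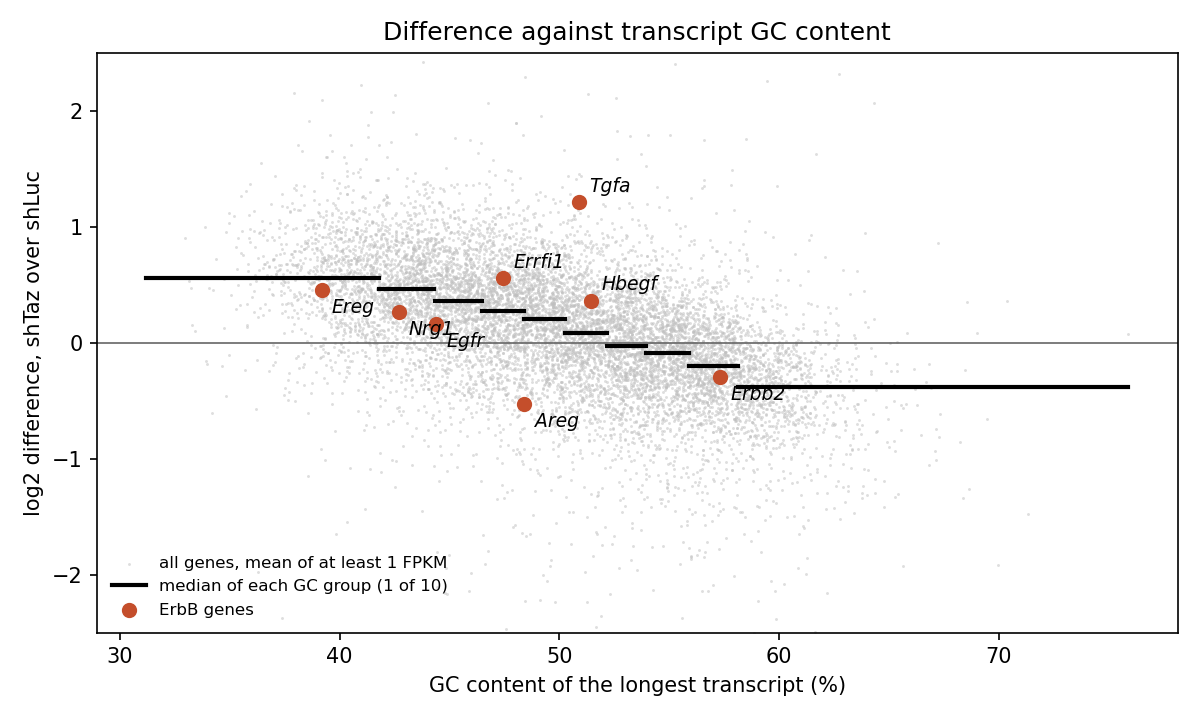
Log2 difference (shTaz over shLuc) against GC content of the longest transcript (%), with all genes in grey, the median of each of 10 GC groups as black lines and the 8 ErbB genes that passed the filter in orange; 46 genes lie outside the plotted range of 2.5 in size. The medians decline with GC content, and Tgfa and Areg stand farthest from them, at 1.13 and -0.80.

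Ereg, Areg and Btc are neighbours in the genome. On mm10 chromosome 5, per the GENCODE M21 annotation and counted from 1, Ereg spans 91074622 to 91093646 and Areg 91139599 to 91148432 on the plus strand, with 46.0 kb between them, and Btc spans 91357261 to 91402994 on the minus strand, 208.8 kb further on. Ereg was higher in shTaz, with 1.69 FPKM against 0.958 FPKM in shLuc tumors, and its neighbour Areg was lower, with 8.21 FPKM against 12.2 FPKM in shLuc tumors. With the trends removed both were lower, Ereg at -0.17 and Areg at -0.58. Tgfa lies on chromosome 6 from 86195223 to 86275719 and Errfi1 on chromosome 4 from 150853919 to 150868892, both on the plus strand. Egfr spans 16752203 to 16918158 and Erbb2 98412470 to 98437716 on the plus strand of chromosome 11. Erbb2 shares exon bases with Mien1 on the other strand, and Ereg, Tgfa and Nrg1 each with 1 noncoding or unclassified gene on the other strand. The strand setting of the libraries is not given in the sources used here, so reads of these overlapping parts cannot be told apart.

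The rest of the family added little. Of 6 further receptor and ligand genes, Erbb4 and Epgn were not analysed here and none of the other 4 reached a mean of 1 FPKM. Nrg4, another neuregulin gene, was at 0.898 FPKM in shTaz and 0.246 FPKM in shLuc tumors, and Nrg2 was at 0.111 FPKM in shTaz and 0.348 FPKM in shLuc tumors. Egf and Nrg3 were at 0.227 and 0.0588 FPKM in shTaz tumors and listed at 0 in shLuc tumors.

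Genes that release the ligands went both ways, 4 of 7 being above 0, where 58.3% of all genes were. Of the 7, 1 was 2-fold higher in shTaz and none 2-fold lower, with a median difference of 0.63 beside 0.12 for all genes. Adam9, a metalloprotease that can cut the Hbegf precursor, was the 2-fold higher gene, at 14.9 FPKM in shTaz and 6.72 FPKM in shLuc tumors. Its difference of 1.04 was 0.68 with the trends removed, so that the 2-fold call did not hold there. Adam17, the main sheddase of Areg and Tgfa, was at 24.4 FPKM in shTaz and 15.4 FPKM in shLuc tumors, and Adam10 at 17.1 FPKM in shTaz and 9.41 FPKM in shLuc tumors (both named after their values were seen). With the trends removed the difference of Adam17 was 0.18, against 0.63 as deposited, and that of Adam10 was 0.24, against 0.80. Rhbdf1, one of the inactive rhomboids that carry Adam17 to the cell surface, was at 29.3 FPKM in shTaz and 36.7 FPKM in shLuc tumors. The list median was 0.24 with the trends removed.

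Of 17 genes of receptor restraint and trafficking, 16 passed the filter, 1 was 2-fold higher and none 2-fold lower, with a median difference of 0.41 that was 0.19 with the trends removed. Erbb2ip, also called Erbin, which binds Erbb2 at the basolateral membrane of epithelia, was at 6.89 FPKM in shTaz and 2.83 FPKM in shLuc tumors. Its difference was 1.04, and 0.40 with the trends removed.

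Of 17 adaptors and RAS-ERK genes, 16 were analysed and none was 2-fold different, with a median of 0.49 that was 0.06 with the trends removed. The member that differed most was Ptpn11, which encodes the phosphatase SHP2, at 12.2 FPKM in shTaz and 6.14 FPKM in shLuc tumors. None of 10 PI3K-AKT genes was 2-fold different either, and the median was 0.18. Pdpk1, the kinase that activates AKT, was at 5.59 FPKM in shTaz and 2.51 FPKM in shLuc tumors.

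Genes known to respond to ERK signaling went both ways. Of 18, 1 was 2-fold higher and 1 was 2-fold lower, 11 were higher and 7 lower by any amount, and the median was 0.26. Dusp4, an ERK phosphatase that is induced by ERK, was at 10.8 FPKM in shTaz and 3.94 FPKM in shLuc tumors, a difference of 1.25. Spry1, a Sprouty inhibitor of receptor signaling, was at 27.2 FPKM in shTaz and 55.8 FPKM in shLuc tumors, a difference of -1.01. With the trends removed 3 of the 18 were 2-fold higher and 0 were 2-fold lower: Dusp4 was at 1.42, Spry1 at -0.80, and Fosl1 and Ier3, named after their values were seen, at 1.13 and 1.01. Among the 11055 genes with the trends removed, 189 were 2-fold higher and 303 were 2-fold lower. Over the 6 lists as deposited, 67 genes passed the filter and 5.97% of them were 2-fold different, near the 7.21% of all genes.

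**Figure D4:**
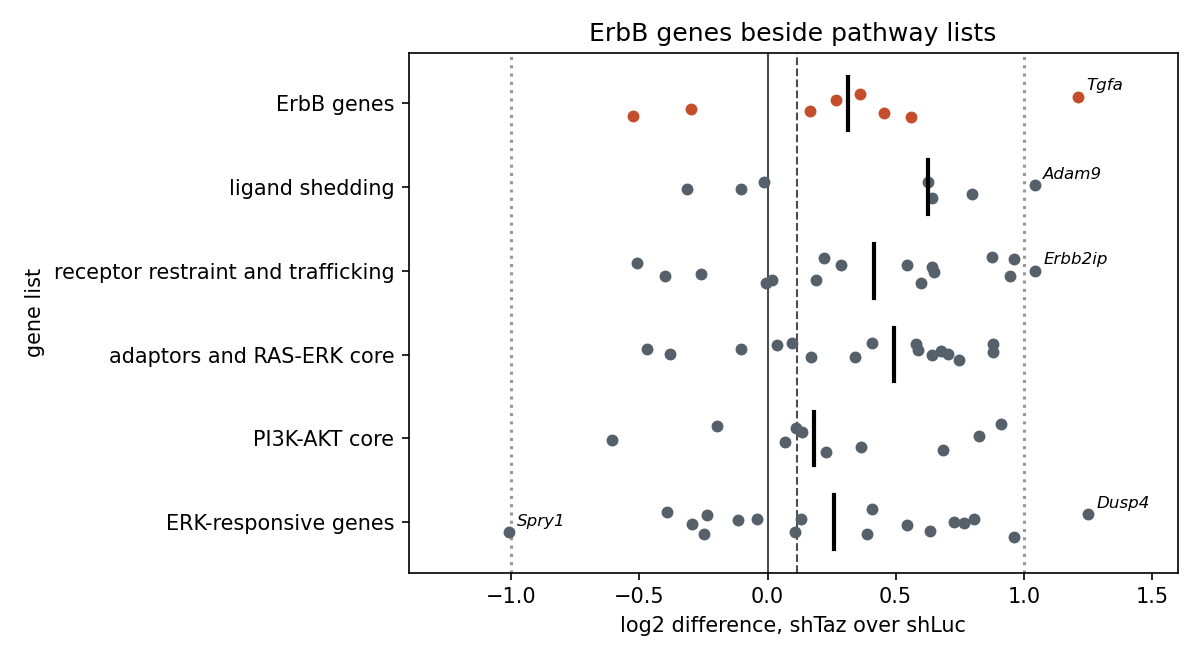
Log2 difference (shTaz over shLuc) of the genes that passed the filter, for the ErbB genes (orange) and 5 pathway lists (grey), with black bars at list medians, dotted lines at 2-fold and the dashed line at the median of all genes. List medians lie between 0.18 and 0.63, each list spans both sides of 0, and the 5 genes past 2-fold are named.

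Markers of other cells also differed between the groups, and their part in the ErbB values was not tested. In bulk tumors, fewer cells of a type and less RNA per cell cannot be told apart. As background, 3.25% of all genes were 2-fold lower and 3.96% were 2-fold higher. Of 8 fibroblast markers 4 were 2-fold lower, with a summed level of 1378 FPKM in shTaz and 2161 FPKM in shLuc tumors. Of 6 mast cell markers analysed, all 3 that passed the filter were 2-fold lower, the sums being 1.71 FPKM in shTaz and 37.4 FPKM in shLuc tumors, and Cpa3, Cma1 and Mcpt4 were listed at 0 in shTaz tumors. The 3 that passed did so through their shLuc values alone, so that they had to differ. Of 6 neutrophil markers analysed 3 passed, and 2 of them, which passed through their shTaz values alone, were 2-fold higher, with sums of 55.6 FPKM in shTaz and 6.61 FPKM in shLuc tumors. S100a8 and S100a9 carried most of the shTaz sum, at 18.6 and 29.2 FPKM. S100a8 was listed at 0 in shLuc tumors, and Mmp8 and Camp at 0 in shTaz tumors. Csf3r was higher in shTaz, at 7.10 FPKM against 3.93 FPKM in shLuc tumors. Cxcr2 was lower in shTaz, at 0.694 FPKM against 0.867 FPKM in shLuc tumors. None of 9 macrophage markers was 2-fold different, and their sum was 3668 FPKM in shTaz and 4204 FPKM in shLuc tumors. Of 6 keratinocyte markers analysed 3 passed and none was 2-fold different, with sums of 13.5 FPKM in shTaz and 11.0 FPKM in shLuc tumors and Trp63 listed at 0 in shLuc tumors. With the trends removed 1 of these 3, Sfn, was 2-fold higher, at 1.37, as were 189 of 11055 genes. Of 8 endothelial markers 6 passed and none was 2-fold different, with sums of 83.2 FPKM in shTaz and 128 FPKM in shLuc tumors.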

How the data were processed

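RNA was sequenced from subcutaneous tumors with shTaz or shLuc, 2 samples each per the labels. The authors deposited FPKM values, 1 column per group. The build was mm10 and the tools named are TopHat and Trim Galore, per the submitters' processing notes. Their versions, the FPKM program and the annotation are not given in the sources used here. Whether the values were corrected for base composition is likewise not given, and a few abundant RNAs can shift all other FPKM values. The columns summed to 427921 (shTaz) and 501728 (shLuc) FPKM. Depth is unknown: the best of 1500 trial steps placed 35.0% of 309 low shTaz values and 30.5% of 331 low shLuc values within 0.1 of a whole read, where about 20% would fall for 1 step set beforehand, so no reads were recovered and no counting interval is given.

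Planned limma tests were replaced by description, as planned for a table with 1 column per group. Differences were computed from the deposited values with a pseudocount of 1 FPKM and a filter of a mean of at least 1 FPKM. Length and base composition were those of the longest GENCODE M21 transcript of a gene, found for 94.9% of the genes that passed. Trends were removed by lowess (span 0.3, statsmodels 0.14.6, checked on simulated data). Named were all 10 members, Wwtr1, Taz and Yap1, and of each list the 2-fold genes or else the 2 that differed most; others, markers included, were named after their values were seen. Some genes that the rule takes are not reported here. The members and lists were chosen with earlier results of these data known. The 9 alternatives covered pseudocount, filters, scaling, trends and gene type.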

Additional observations from a re-analysis of the deposited data

How the results depend on the processing

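No paired analysis was possible because the deposited table holds 1 column per group, which carries no replicate number; for the same reason no sample could be left out. Of the alternatives, scaling to the same sum and the limit to genes above 0 in both groups were chosen after seeing the data. Erbb2 and Areg were below 0, and Hbegf, Errfi1 and Tgfa above 0, in every setting in which they were counted. The filters and gene type leave a gene's difference unchanged, and the pseudocount cannot turn its sign. Only the scalings and the trend removal could have changed a direction. Tgfa ranged from 1.04 with the trends removed to 2.54 with a pseudocount of 0.1 FPKM. It failed the filter, leaving 0 members past 2-fold, with a mean of at least 5 FPKM and with quantile normalization. Egfr turned to -0.016 with quantile normalization, and with the trends removed Egfr turned to -0.28, Ereg to -0.17, Nrg1 to -0.29 and the median of the 8 members to -0.16. The cause was not tested. Of all genes, 461 were 2-fold higher and 379 lower as reported. The higher count was 996 with a pseudocount of 0.1 FPKM, 219 with a mean of at least 5 FPKM (215 lower, fewer genes being counted), 307 with median-ratio scaling, 288 with quantile normalization, 189 with the trends removed and 1002 with the same sum. The median of all genes moved by -0.12 with median-ratio scaling, by -0.11 with the trends removed and by 0.20 with the same sum. Relative to that median, Areg and Erbb2 were lower and Hbegf, Errfi1 and Tgfa higher in each alternative that counted them. Scaling by a factor moves a gene and that median nearly together. Quantile normalization and the trend removal were thus the main settings that could have changed a side. Tgfa could pass the filter only through its shTaz value, so its direction in the filtered settings was fixed in advance. The medians of the 5 pathway lists stayed above 0 in all 9 alternatives. The median of all genes was itself above 0, except for -0.0014 with median-ratio scaling, so the sign alone does not set the lists apart. The PI3K-AKT median fell to 0.06 with median-ratio scaling, and that of the adaptors and RAS-ERK genes to 0.06 with the trends removed. Unknown depth limits the genes under 1 FPKM most.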
